A study of Mus musculus with 16 samples.

Results

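The BTG and TOB genes were followed in RNA-seq of mouse bone marrow-derived macrophages (BMDM). They were chosen by symbol: Btg1, Btg2, Btg3, Tob1 and Tob2 were listed, and 4 of these 5 had a row among the 9614 genes of the table. Btg1, Btg2 and Tob1 stood under their plain symbols. Tob2 stood under the name Tob2_1, one of 14 gene names with a number suffix. No plain Tob2 row stood beside it, so its values may cover only 1 annotation of the gene, and they are given as Tob2 with that limit. Btg3, and Btg4 beyond the list, were not analysed here.

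BTG and TOB proteins share an N-terminal domain and slow entry into the cell cycle. Some of their genes, such as Btg2, are early response genes in many cell types. They bind the CAF1 subunits of the CCR4-NOT complex, which shortens the poly(A) tails of mRNAs. The longer TOB proteins also bind cytoplasmic poly(A)-binding protein through their C-terminal part and so link it to deadenylation. BTG1 and BTG2 are best known in blood cells for their part in quiescence and in lymphocyte development.

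The BMDM came from male C57BL/6 mice of 8 weeks, 3 WT (LysM-Cre:NELF-B wt/wt) and 3 NELF-B KO (LysM-Cre:NELF-B fl/fl). By these labels both genotypes carried LysM-Cre, which is active in myeloid cells, and in the KO it removes a floxed exon of Nelfb, the gene of a subunit of the negative elongation factor NELF. Cells were left untreated (2 libraries per genotype), treated for 1 hr with LPS at 10 ng/ml (3 libraries per genotype), or treated for 1 hr with LPS at 10 ng/ml and the synthetic glucocorticoid dexamethasone (Dex) at 100 nM (3 libraries per genotype). Within a genotype the mice are named by letter (A, B, C). Each gave an LPS and an LPS + Dex library, and neither mouse C gave an untreated one.

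Values are log2 CPM (counts scaled to library size) as deposited. The 16 libraries held 25000000 to 49700000 reads, as recovered from the steps of the low values, and each BTG or TOB gene had at least 285 reads in every library. Nelfb was at 5.59 to 6.21 log2 CPM in the 8 WT libraries and at 3.27 to 4.38 in the 8 KO libraries, and within the KO it was highest in mouse B (4.21 to 4.38). The untreated library of WT mouse A stood apart, with a correlation of 0.83 to 0.909 with the other libraries against 0.924 to 0.993 among those. All 10 macrophage markers had a row (summed level 13.11 to 13.89 log2 CPM). Of the markers of other cells, 1 of 8 for neutrophils, 1 of 5 for T cells, 1 of 4 for B cells, 4 of 6 for stroma and endothelium, 0 of 4 for dendritic cells and 0 of 3 for erythroid cells had one. The T cell marker with a row was Cd4, at 2.37 to 5.89 log2 CPM.

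Btg1 lies on the plus strand at chr10:96617006-96622809, Btg2 on the minus strand at chr1:134075170-134079120, Tob1 on the plus strand at chr11:94211454-94215495 and Tob2 on the minus strand at chr15:81848272-81858796 (mm10, GENCODE vM21), and all are protein coding. Of the 50-base words in their annotated transcripts, 2.49% in Btg1 also occurred in the gene Gm14519, and 2.99% in Tob2 occurred in other genes, most of them in Gm49476, which is annotated on the opposite strand within the Tob2 locus. No such word of Btg2 or Tob1 occurred elsewhere. The strandedness of the counting was not given in the sources used here, so reads of Tob2 and of its antisense neighbour cannot be told apart where they overlap.

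The 250 bases upstream of the RefSeq start (GRCm38.p6) are shown for the 3 genes whose levels were higher with LPS in each mouse compared. This places their upstream sequences beside that rise, which was not called for Tob1. Each reads 5′ to 3′ on the strand of its gene. Capitals mark matches to 7 motifs searched on both strands. These were the letters GGGNNTTCC for NF-kB, TGANTCA for AP-1, TGACGTCA for the cyclic AMP response element (CRE), ACANNNTGT for the core of glucocorticoid response elements, GGGCGG for SP1 and KLF factors, TATAAA for the core promoter motif that binds TBP, and CACGTG for E-boxes.
Btg1, chr10:96616751-96617000, plus strand: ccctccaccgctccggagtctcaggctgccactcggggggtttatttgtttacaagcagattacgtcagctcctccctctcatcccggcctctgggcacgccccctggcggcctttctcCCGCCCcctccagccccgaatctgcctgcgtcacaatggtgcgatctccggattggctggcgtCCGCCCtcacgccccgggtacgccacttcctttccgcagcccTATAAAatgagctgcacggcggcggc
Btg2, chr1:134079156-134079405, minus strand: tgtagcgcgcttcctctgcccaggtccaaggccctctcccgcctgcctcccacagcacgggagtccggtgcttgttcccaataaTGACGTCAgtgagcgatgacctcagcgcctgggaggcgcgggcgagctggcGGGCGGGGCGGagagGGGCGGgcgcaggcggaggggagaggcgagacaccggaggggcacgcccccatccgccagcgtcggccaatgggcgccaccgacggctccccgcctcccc
Tob1, chr11:94211204-94211453, plus strand: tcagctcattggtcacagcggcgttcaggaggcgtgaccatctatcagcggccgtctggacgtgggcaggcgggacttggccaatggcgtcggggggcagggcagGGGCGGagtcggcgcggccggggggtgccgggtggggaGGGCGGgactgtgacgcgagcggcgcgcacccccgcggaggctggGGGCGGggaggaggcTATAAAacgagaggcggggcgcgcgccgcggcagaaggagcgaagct

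With -1 as the last base before the start, Btg2 held TGACGTCA at -166 to -159, a motif found in 1.55% of the 32851 promoter windows of this length. Btg1 and Tob1 held TATAAA, Btg1 at -26 to -21 and Tob1 at -47 to -42 (12.4% of windows). All 3 held GGGCGG or its reverse complement, with 2 matches in Btg1, 3 in Btg2 (of which 2 share a base) and 3 in Tob1 (32.7% of windows). Tob2, whose window is not shown, held such matches as well, at -44 to -39 and -33 to -28. None of the 3 windows held the letters searched for NF-kB (4.98% of windows), AP-1 (6.75%), the glucocorticoid response element core (5.84%) or the E-box (6.02%).

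LPS raised Btg1 and Btg2 in both genotypes, and Btg2 rose by far more than Btg1. Btg2, an early response gene also induced by p53, stood in WT at 4.71 and 5.12 log2 CPM in the untreated libraries of mice A and B, and at 7.47, 8.04 and 7.77 under LPS (letter order). In the KO it stood at 5.56 and 5.17 untreated and at 8.70, 8.60 and 8.61 under LPS. Each LPS library lay above each untreated library of its genotype. The rise was 2.85 on the log2 scale in WT (SE 0.22, 7.19-fold, limma adjusted p = 1.78e-06) and 3.27 in the KO (SE 0.22, 9.66-fold, limma adjusted p = 3.66e-07). Only 80 genes had a change at least as high in WT and 60 in the KO, Btg2 included.

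Btg1, its closest relative, stood at 7.48 and 6.91 log2 CPM in untreated WT libraries and at 8.49, 8.22 and 8.19 under LPS. In the KO it stood at 7.56 and 7.28 untreated and at 8.82, 8.82 and 8.75 under LPS. The ranges of untreated and LPS libraries did not overlap in either genotype. For Btg1 and Btg2 alike, the share of all genes with such a gap was not counted. The rise was 1.11 in WT (SE 0.16, 2.15-fold, limma adjusted p = 0.000658) and 1.37 in the KO (SE 0.16, 2.59-fold, limma adjusted p = 9.96e-05). Fitted on the WT untreated and LPS libraries alone, the Btg1 change in WT did not pass (adjusted p = 0.176).

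The TOB genes were not called with LPS. Tob1, which also restrains T cell activation, was higher with LPS in each of the 4 mice with both libraries, by 0.50 (A) and 0.37 (B) in WT and by 0.76 (A) and 0.68 (B) in the KO. The fitted change was 0.46 in WT (SE 0.17, adjusted p = 0.117) and 0.62 in the KO (SE 0.17, adjusted p = 0.0665), short of the threshold of 0.05. With the mouse as a block, so that each mouse was compared with itself, it passed in both (adjusted p = 0.0298 in WT and 0.00202 in the KO), and so did more genes in all (8.61% and 4.65% of all genes called higher). The WT change rested on the untreated library used, at 0.24 without that of mouse A (adjusted p = 0.673) and 0.68 without that of mouse B (adjusted p = 0.00756, in a fit that called 29.3% of all genes higher). Tob2, a relative of Tob1, showed no common direction. It was higher with LPS in both mice A (by 0.45 in WT and 0.29 in the KO) and lower in both mice B (-0.19 and -0.21). Its fitted change was 0.00 in WT (95% interval -0.48 to 0.49) and -0.06 in the KO (-0.54 to 0.42).

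In all, 2 of the 4 genes were called higher with LPS in WT, where 4.63% of all genes were, and the same 2 in the KO, where 2.92% of all genes were. The median change over the 4 genes was 0.78 in WT and 1.00 in the KO, against 0.02 and -0.01 over all genes tested. A rise in 4 of 4 mice was seen for 3 of the 4 genes and for 21.9% of all genes. Btg1 and Btg2 belong to a list of LPS-induced, Dex-repressed genes that the study chose on RNA-seq of this experiment, so the direction of their LPS and Dex changes in WT is not independent evidence. The LPS response was not shown to differ between the genotypes. The KO response minus the WT response was 0.26 for Btg1 (95% interval -0.23 to 0.76), 0.43 for Btg2 (-0.24 to 1.10), 0.16 for Tob1 (-0.36 to 0.68) and -0.06 for Tob2 (-0.74 to 0.62). No gene of the table passed this test in limma (0% called, 221 genes at an unadjusted p under 0.05, none of them a BTG or TOB gene). Without the untreated library of WT mouse B, the Btg1 difference passed (adjusted p = 0.0324), in a fit that called 18.9% of all genes higher and 19.9% lower.

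**Figure D1:**
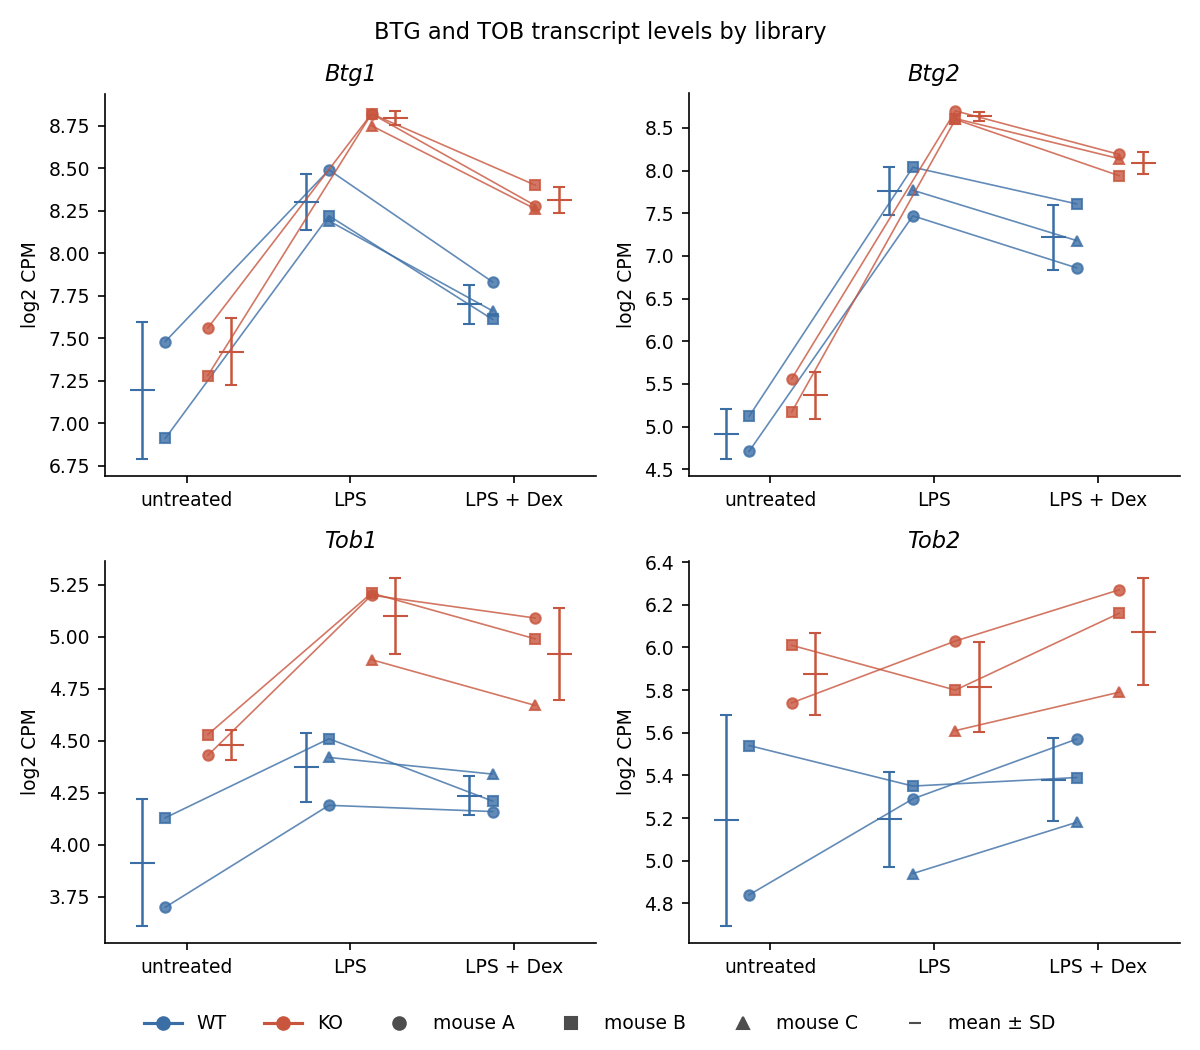
Transcript levels of Btg1, Btg2, Tob1 and Tob2 (vertical axes, log2 CPM, a range of its own in each panel) in untreated, LPS and LPS + Dex BMDM of WT (blue) and KO (red). Lines join the libraries of 1 mouse, symbols give the mouse, and the bars beside them give the mean ± SD. Btg1 and Btg2 peaked under LPS in each mouse with an untreated library, and under LPS and LPS + Dex the KO libraries lay above the WT libraries in all 4 panels.

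Dex given with LPS lowered Btg1 and Btg2 in every mouse. Btg1 stood at 7.83, 7.61 and 7.66 log2 CPM under LPS + Dex in WT and at 8.28, 8.40 and 8.26 in the KO, again in letter order. In each genotype these lay below all of its LPS libraries, and the share of all genes with such a gap was not counted. The change within a mouse was -0.66, -0.61 and -0.53 in WT and -0.54, -0.42 and -0.48 in the KO. Over both genotypes it was -0.54 (SE 0.07, 95% interval -0.69 to -0.39, 1.45-fold lower, limma adjusted p = 0.00172, mouse as a block). Btg2 stood at 6.86, 7.61 and 7.18 in WT and at 8.19, 7.94 and 8.14 in the KO under LPS + Dex. Its WT libraries overlapped those under LPS alone, since WT mouse B was high in both, while its KO libraries did not. Within the mice Btg2 changed by -0.60, -0.43 and -0.60 in WT and by -0.52, -0.66 and -0.47 in the KO. Over both genotypes the change was -0.55 (SE 0.06, 95% interval -0.68 to -0.41, 1.46-fold lower, limma adjusted p = 0.000736). Without the block by mouse Btg1 still passed (adjusted p = 0.0107) and Btg2 did not (adjusted p = 0.0712).

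Dex removed only part of the rise. Within the mice that had an untreated library, Btg2 under LPS + Dex remained 2.15 to 2.77 above its untreated level on the log2 scale, and Btg1 0.35 to 1.12 above.

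Tob1 and Tob2 moved in opposite directions with Dex, by small amounts. Tob1 was lower in 6 of 6 mice, by 0.04 to 0.29 (fitted change -0.16, SE 0.06, adjusted p = 0.325). Tob2 was higher in 6 of 6 mice, by 0.04 to 0.36 (fitted change 0.22, SE 0.11, adjusted p = 0.641). A decrease in 6 of 6 mice was seen for 3 of the 4 genes and for 10.4% of all genes, and an increase for 1 of the 4 and for 9.16% of all genes. Both TOB changes passed when the untreated libraries were left out of the fit (adjusted p = 0.0149 for Tob1 and 0.000761 for Tob2). That fit called far more genes in all, 8.24% of all genes higher and 8.9% lower, against 2.49% and 2.36% in the main fit. Without the untreated library of WT mouse A or that of WT mouse B, the size of the changes stayed at -0.16 for Tob1 and 0.22 for Tob2. Their side of the threshold did not stay the same in these fits.

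**Figure D2:**
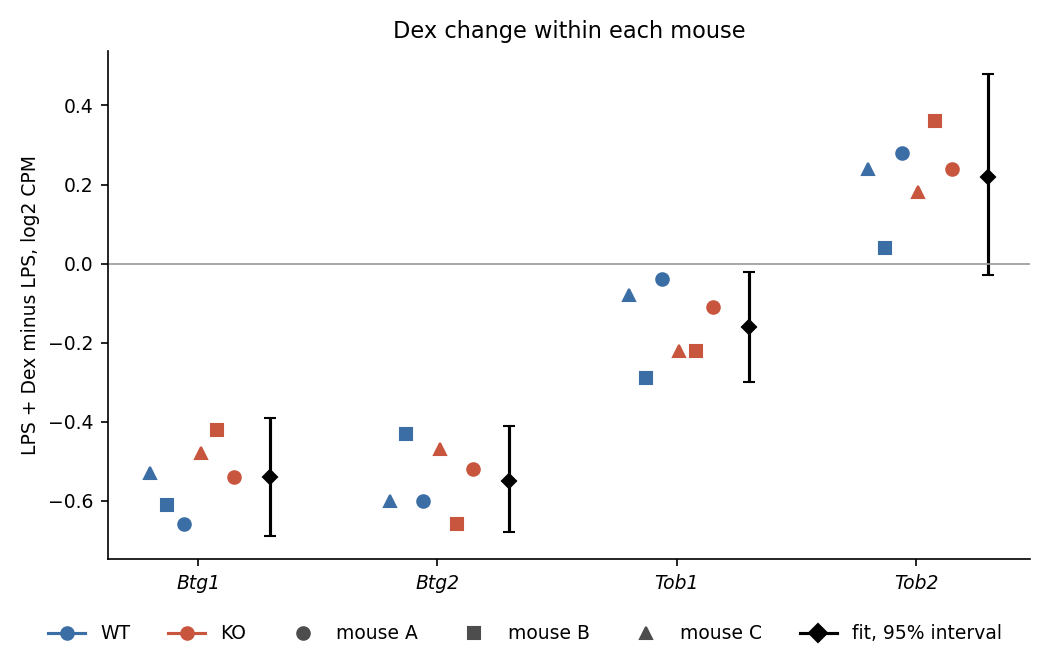
Change with Dex within each mouse (vertical axis, LPS + Dex minus LPS in log2 CPM) for the 4 genes. Coloured symbols are single mice (WT blue, KO red), and black diamonds with bars are the fitted change over both genotypes and its 95% interval. The 6 mice lie between -0.66 and -0.42 for Btg1, between -0.66 and -0.43 for Btg2, just below 0 for Tob1 and just above 0 for Tob2.

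Over both genotypes 2 of the 4 genes were called lower with Dex (2.36% of all genes) and 0 higher (2.49%). Their median change was -0.35, against -0.01 over all genes. In WT alone Btg1 (-0.60, SE 0.10, limma adjusted p = 0.0132) and Btg2 (-0.55, SE 0.08, limma adjusted p = 0.0114) were called lower, where 1.01% of all genes were, and none higher (1.19% of all genes). In the KO alone Btg1 (-0.48, SE 0.10, limma adjusted p = 0.0366) and Btg2 (-0.55, SE 0.08, limma adjusted p = 0.009) were called lower, where 1.19% of all genes were, and none higher (1.38% of all genes). These calls within a genotype did not hold without every library. Leaving out any 1 of the 6 LPS or LPS + Dex libraries of WT left neither WT call, except that Btg2 stayed called without LPS + Dex of mouse B (adjusted p = 0.0238), and leaving out any 1 of the 6 such KO libraries left neither KO call. Btg1 also dropped out in the KO without any of 5 of the 6 WT libraries (adjusted p = 0.0554 to 0.0857). The calls over both genotypes held without each single library.

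The Dex response of these genes was not shown to differ between the genotypes. The KO change minus the WT change was 0.12 for Btg1 (95% interval -0.18 to 0.43), 0.00 for Btg2 (-0.26 to 0.26), -0.05 for Tob1 (-0.33 to 0.23) and 0.08 for Tob2 (-0.43 to 0.59). No gene passed this test in limma (0% called, 27 genes at an unadjusted p under 0.05, none of them a BTG or TOB gene).

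All 4 genes were higher in the KO than in WT under LPS and under LPS + Dex, by similar amounts, though none passed the threshold over all genes. Under LPS the difference was 0.49 for Btg1 (SE 0.14, adjusted p = 0.245), 0.88 for Btg2 (SE 0.20, adjusted p = 0.12), 0.72 for Tob1 (SE 0.15, adjusted p = 0.0988) and 0.62 for Tob2 (SE 0.20, adjusted p = 0.3). Under LPS + Dex it was 0.61 for Btg1 (SE 0.14, adjusted p = 0.121), 0.88 for Btg2 (SE 0.20, adjusted p = 0.103), 0.68 for Tob1 (SE 0.15, adjusted p = 0.103) and 0.70 for Tob2 (SE 0.20, adjusted p = 0.184). At an unadjusted p under 0.05, 4 of the 4 genes passed under LPS, with 665 genes in all, and 4 of the 4 under LPS + Dex, with 762 in all. These SEs and p-values come from a fit that counts the libraries of 1 mouse as independent. The median difference over the 4 genes was 0.67 and 0.69, against 0.00 and 0.01 over all genes. Few genes passed after adjustment at all, 0.114% called higher under LPS and 0.0832% under LPS + Dex.

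Every KO library lay above every WT library for 4 of the 4 genes under LPS, where 5.91% of all genes did so, and for 4 of the 4 under LPS + Dex, where 8.93% did. The same mice gave both treatments, so these are not separate observations. Btg2 under LPS was 7.47 to 8.04 log2 CPM in WT and 8.60 to 8.70 in the KO, and Tob1 was 4.19 to 4.51 and 4.89 to 5.21. Btg2 in KO cells given Dex (7.94 to 8.19) overlapped Btg2 in WT cells given LPS alone, and so did Btg1 (8.26 to 8.40 against 8.19 to 8.49).

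In untreated cells the differences were 0.23 for Btg1 (SE 0.18, adjusted p = 0.453), 0.45 for Btg2 (SE 0.24, adjusted p = 0.333), 0.56 for Tob1 (SE 0.18, adjusted p = 0.324) and 0.68 for Tob2 (SE 0.24, adjusted p = 0.324). None was called, and 0.0104% of all genes were called higher. Btg2, Tob1 and Tob2 had both KO libraries above both WT libraries, 3 of the 4 genes against 15.7% of all genes, while Btg1 overlapped (6.91 and 7.48 in WT, 7.28 and 7.56 in the KO). These 3 genes had no overlap in any of the 3 treatments, as did 1.88% of all genes. For Tob2 the 8 KO libraries (5.61 to 6.27) lay above the 8 WT libraries (4.84 to 5.57) whatever the treatment, as for 0.51% of all genes.

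**Figure D3:**
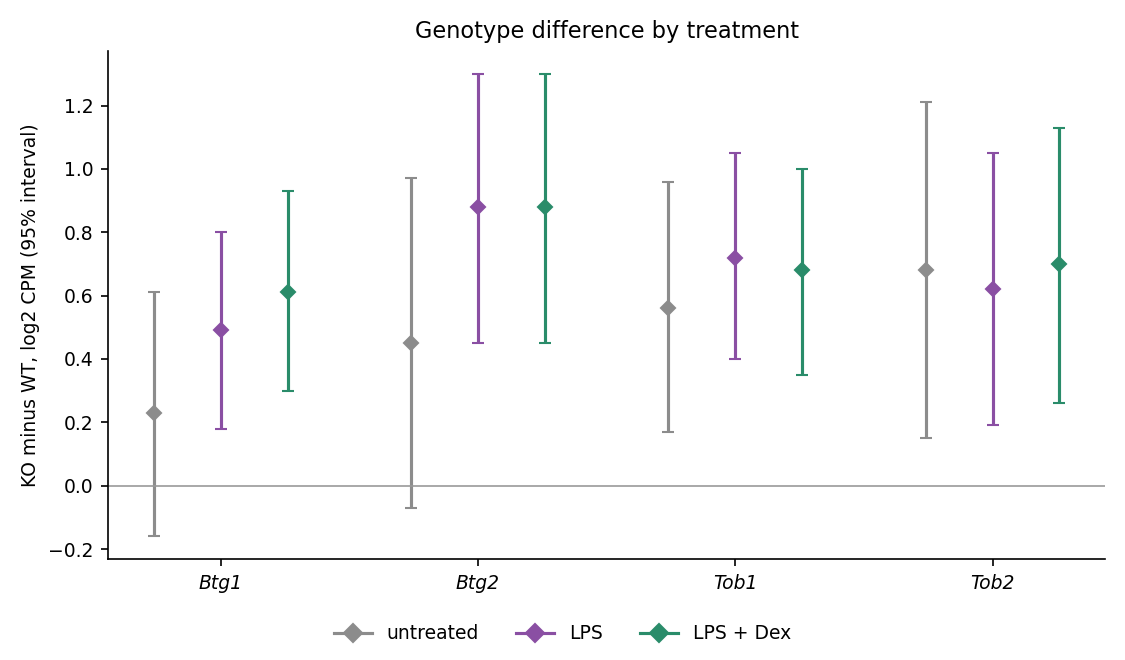
Difference between genotypes (vertical axis, KO minus WT in log2 CPM) for the 4 genes in untreated cells (grey), under LPS (purple) and under LPS + Dex (green). Diamonds are fitted differences and bars their 95% intervals, not adjusted for the number of genes or for libraries that share a mouse. The intervals lay above 0 under LPS and LPS + Dex for all 4 genes and included 0 in untreated cells for Btg1 and Btg2.

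The size of the genotype difference varied from mouse to mouse. Some library names of WT mouse B and KO mouse B share a part. Those of WT mouse C and KO mouse C hold a part of the same form. The names do not say what these parts mark. Nothing ties WT mouse A to KO mouse A, which are set together only because they remain. Taken by letter (A, B, C), the KO was higher than WT for Btg2 by 1.24, 0.55 and 0.84 under LPS and by 1.33, 0.33 and 0.97 under LPS + Dex. For Btg1 it was higher by 0.32, 0.59 and 0.56, and by 0.45, 0.79 and 0.61. For Tob1 it was higher by 1.00, 0.70 and 0.46, and by 0.93, 0.77 and 0.33. For Tob2 it was higher by 0.74, 0.45 and 0.67, and by 0.70, 0.77 and 0.61. No letter had the largest or the smallest difference for all 4 genes. That each value is above 0 follows from the lack of overlap given before and is not a further observation.

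The calls between genotypes turned on the model of the spread. With the letter as a block, Tob1 passed under LPS (adjusted p = 0.0369), where 0.551% of all genes were then called higher, and Btg1 (0.0265), Tob1 (0.0367) and Tob2 (0.0476) passed under LPS + Dex (0.811% of all genes), while Btg2 did not (0.0614 and 0.0501). With the mouse as a random effect, Btg2 passed under LPS (0.0436, with 0.198% of all genes) and under LPS + Dex (0.0362, with 0.25%), and the other 3 genes did not. Without the untreated library of WT mouse A or of WT mouse B, Tob1 passed under LPS (adjusted p = 0.0417 and 0.0419, with 0.187% of all genes in both fits), and Btg1 (0.0244 and 0.0243) and Tob1 (0.0458 and 0.0455) passed under LPS + Dex (0.395% of all genes in both). Without WT mouse B under LPS + Dex, Btg2 passed there (0.0355, with 0.187% of all genes). Fitted on only the libraries compared, each from a different mouse, no BTG or TOB gene passed under either treatment. The limma adjusted p was then 0.246 to 0.266 under LPS and 0.172 to 0.198 under LPS + Dex. That fit called 0% of all genes higher and 0% lower under each treatment.

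The untreated differences turned on which WT library was used. Without the untreated library of WT mouse A they were 0.51 for Btg1, 0.24 for Btg2, 0.34 for Tob1 and 0.33 for Tob2 (adjusted p = 0.98 for each). Without that of WT mouse B they were -0.06 for Btg1, 0.66 for Btg2, 0.78 for Tob1 (adjusted p = 0.00547) and 1.03 for Tob2 (adjusted p = 0.00442). The latter fit keeps only the library that stood apart as untreated WT, and it called 26.1% of all genes higher in the KO and 24.4% lower.

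Lyz2, the gene at which LysM-Cre is inserted, was also higher in the KO, by 0.94 untreated (adjusted p = 0.324), 1.16 under LPS (adjusted p = 0.0963) and 1.30 under LPS + Dex (adjusted p = 0.0589). The summed level of the 10 macrophage markers was 13.11 to 13.88 log2 CPM in WT libraries and 13.65 to 13.89 in KO libraries, and none of the markers passed between the genotypes. S100a8, the neutrophil marker with a row, was at 2.45 to 4.76 log2 CPM in WT and at 3.56 to 5.38 in the KO, while the defining markers Ly6g, Mpo and Elane had no row. Cd4 was at 2.90 to 5.89 in WT and at 2.37 to 5.24 in the KO, with KO minus WT at -1.53 untreated, -1.26 under LPS and -1.24 under LPS + Dex (adjusted p = 0.479, 1 and 1), and Cd3d, Cd3e and Cd3g had no row. The 4 stroma and endothelium markers with a row were Col1a1, Col1a2, Col3a1 and Pecam1. Their summed level was 5.97 to 7.37 log2 CPM in WT and 6.66 to 7.7 in the KO. Each was higher in the KO in every treatment, by 0.18 to 0.52, and none passed. The B cell marker Cd79b was at 3.74 to 5.19 in WT and at 3.81 to 5.31 in the KO. The part of these markers, or of the level of Nelfb, in the genotype differences was not tested. In bulk RNA, a change in the number of cells of a type and a change in RNA per cell cannot be told apart.

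Each gene had its own order of levels. Btg2 rose from untreated WT (mean 4.92 log2 CPM, SD 0.29, n = 2) through untreated KO (5.36, SD 0.27, n = 2), WT under LPS + Dex (7.22, SD 0.37, n = 3), WT under LPS (7.76, SD 0.29, n = 3) and KO under LPS + Dex (8.09, SD 0.13, n = 3) to KO under LPS (8.64, SD 0.06, n = 3). WT under LPS overlapped both its neighbours in that order, and no other neighbours overlapped. Btg1 had the same order, from 7.20 (SD 0.41) to 8.79 (SD 0.04), but WT under LPS (8.30, SD 0.16) and KO under LPS + Dex (8.31, SD 0.07) were nearly equal, and the untreated groups overlapped too. Tob1 ran by genotype first, with the WT groups at 3.91 to 4.37 and the KO groups at 4.48 to 5.10, untreated KO overlapped WT under LPS, and the LPS and LPS + Dex groups overlapped within each genotype. The Tob2 groups were at 5.19 to 5.38 in WT and at 5.81 to 6.07 in the KO, and neighbours overlapped within each genotype but not between them.

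Set per kilobase of annotated exon, the level of Btg2 in WT was below that of Btg1 in untreated cells (3.46 against 4.80 log2 CPM per kb) and above it under LPS (6.30 against 5.90). In the KO the levels were 3.90 and 5.02 untreated and 7.18 and 6.39 under LPS. Tob1 and Tob2 were lower, at 2.72 and 2.45 in untreated WT and at 3.91 and 3.07 in the KO under LPS, with all Tob2 exons counted in its length.

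**Figure D4:**
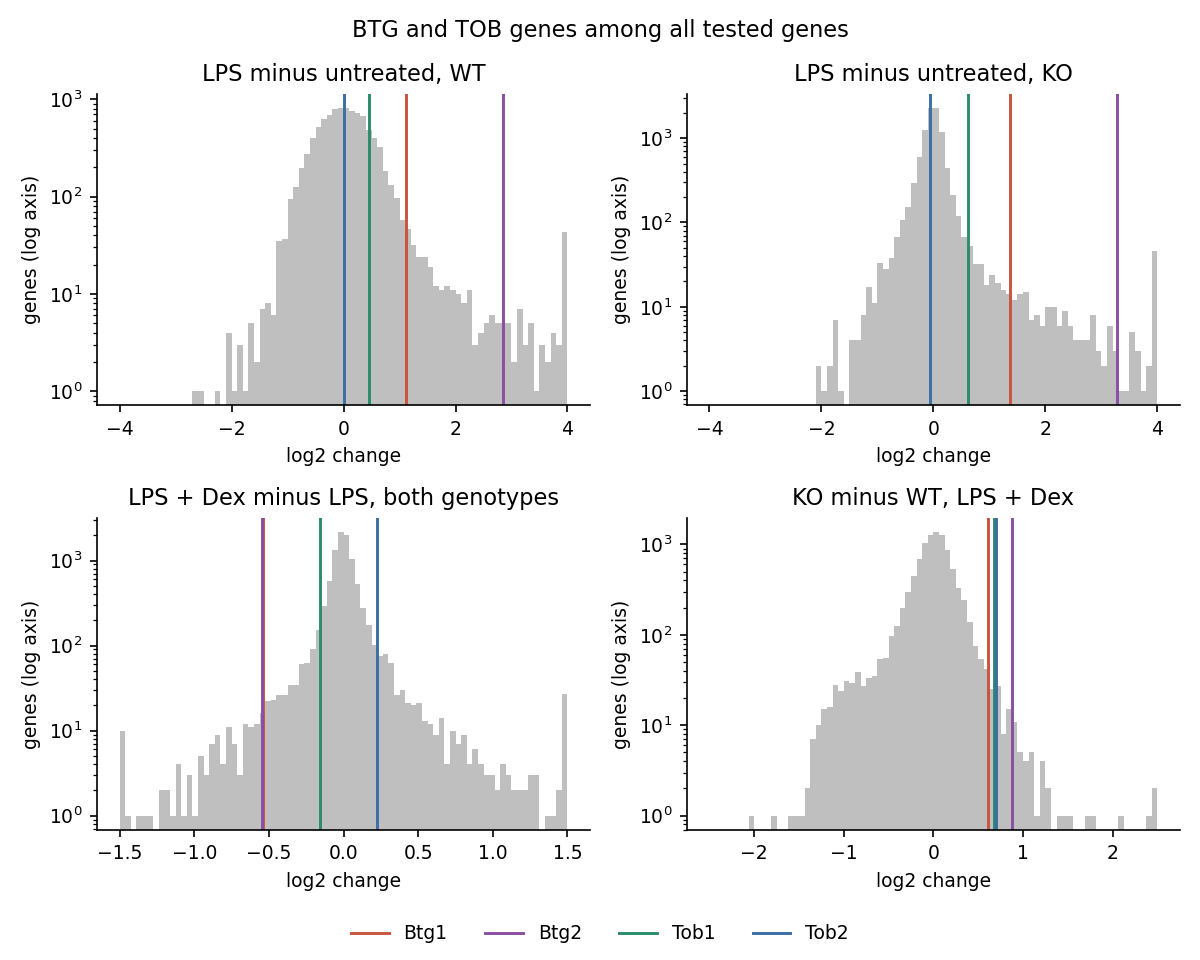
Changes of all 9614 genes (grey bars, number of genes on a log axis) with the 4 genes marked by lines, for LPS in WT, LPS in the KO, Dex over both genotypes, and KO minus WT under LPS + Dex (horizontal axes, log2 change, with genes beyond an axis counted in its end bars). Btg2 lies far to the right with LPS, Btg1 and Btg2 lie together at -0.54 and -0.55 with Dex, and the 4 genes lie at 0.61 to 0.88 between the genotypes.

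Over the 16 libraries Btg1 and Btg2 followed each other (Pearson r = 0.883), Tob1 followed both less closely (0.719 with Btg1 and 0.724 with Btg2), and Tob2 was close to Tob1 (0.761) but not to Btg1 (0.273) or Btg2 (0.288). The libraries share mice and treatments, so these values describe the pattern only. Among 9591 genes with a mean above 1 log2 CPM, the genes most like Btg2 were Errfi1 (0.981), a feedback inhibitor of EGF receptor signalling, Zfp36 (0.98), which encodes the mRNA-destabilising protein tristetraprolin, and Ifrd1 (0.978). Those most like Btg1 were Tgif1 (0.952), a transcriptional repressor, Rap2b (0.952), a small GTPase, and Il17ra (0.946), an interleukin-17 receptor chain. Tob1 was most like Dnajb9 (0.942), an endoplasmic reticulum co-chaperone, Brd2 (0.937), a bromodomain protein, and Ddx5 (0.929), an RNA helicase. Tob2 was most like Tvp23b (0.957), Cnep1r1 (0.907) and Ipmk (0.902), an inositol phosphate kinase.

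Genes of the machinery with which BTG and TOB proteins work were counted as whole lists. With LPS, 4.63% of all genes were called higher in WT and 2.92% in the KO. At such shares lists this short hold few called genes, so the counts say little about the lists. Of the 12 genes of the CCR4-NOT deadenylase, all with a row, 0 passed in any of the 10 comparisons. Cnot7, which encodes a CAF1 subunit and is named after its values were seen, was 0.90 higher with LPS in WT (SE 0.30, adjusted p = 0.0899) and 0.10 higher in the KO (SE 0.30). Of 14 other genes of deadenylation and poly(A) binding, 1 passed with LPS. This was Noct, which encodes nocturnin, a relative of the CCR4 deadenylases that acts on NADPH, higher by 2.45 in WT (SE 0.15, limma adjusted p = 1.8e-07) and by 2.30 in the KO (SE 0.15, limma adjusted p = 2.97e-07). The other 13 did not pass, and none passed with Dex or between the genotypes. Of 8 reported partners of BTG or TOB proteins, 6 had a row, and 1 passed, with LPS in WT. This was Cpeb4, a cytoplasmic polyadenylation factor, 1.42 higher with LPS in WT (SE 0.38, limma adjusted p = 0.0438) and 0.84 in the KO (SE 0.38, adjusted p = 0.533). The difference between these responses was -0.58 (SE 0.54, adjusted p = 0.695) and was not called.

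A list of 14 G1 cyclin, inhibitor and RB family genes covered the cell cycle step that BTG and TOB proteins slow. Of these, 1 rose with LPS in each genotype and 1 rose with Dex. Over all genes, 4.63% were called higher with LPS in WT, 2.92% in the KO, and 2.49% with Dex over both genotypes. Cdkn1a, encoding the cyclin-dependent kinase inhibitor p21, was higher with LPS by 1.48 in WT (SE 0.22, limma adjusted p = 0.000688) and by 1.93 in the KO (SE 0.22, limma adjusted p = 6.84e-05). Cdkn1b, encoding the inhibitor p27, was higher with Dex by 0.55 in WT (SE 0.08, limma adjusted p = 0.0119), by 0.70 in the KO (SE 0.08, limma adjusted p = 0.00338) and by 0.63 over both genotypes (SE 0.06, limma adjusted p = 0.000429). Its Dex change thus had the opposite sign to those of Btg1 and Btg2. None of the 14 passed between the genotypes, where Cdkn1b was higher in the KO by 0.43 under LPS (adjusted p = 0.192) and by 0.58 under LPS + Dex (adjusted p = 0.0946). Genes of this list with larger differences went the other way, and they are named after their values were seen. Ccne2 was lower in the KO (-1.44 under LPS, adjusted p = 0.106, and -1.37 under LPS + Dex, adjusted p = 0.113), and so was Ccne1 (-0.96, adjusted p = 0.314, and -1.08, adjusted p = 0.193), both genes of E-type cyclins.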

How the data were processed

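RNA was poly(A)-enriched, made into libraries with the TruSeq mRNA kit and sequenced as 50-base pairs. The authors aligned these in CLC Bio Genomic Workbench (mm10) and took reads unique to the exons of a gene. These counts were scaled by a weighted trimmed mean in edgeR, and the authors deposited them as log2 CPM. The deposited table also holds 18 columns of the authors' p-values and FDR values for pairwise comparisons, which were not used. The filter that left 9614 genes was not given in the sources used here.

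All genes were fitted with limma 3.58.1 (lmFit, eBayes with a mean-variance trend) in R 4.3.3 on the deposited log2 CPM, not on counts, with no pseudocount or further filter, with Benjamini-Hochberg adjustment over all 9614 genes and calls at an adjusted p under 0.05. LPS and genotype comparisons used 1 fit of the 6 groups over all 16 libraries. That fit counts the libraries of 1 mouse as independent, so its SEs, intervals and p-values do not take the shared mice into account. Dex comparisons used a fit with the mouse as a block, since the labels give the mouse of each library. Deviations from the group means of LPS and LPS + Dex libraries of 1 mouse correlated at 0.78 to 0.94 in 6 of 6 mice, and those of untreated and LPS libraries at 0.19 to 0.82 in 4 of 4. Scripts were tested on simulated data. Reads were recovered from the steps of the low values, and 100.0% of values under 3 CPM were whole within 0.2 reads; 3 reads correspond to 0.0653 to 0.136 CPM. Named genes are the listed ones, Nelfb, the 3 genes most correlated with each, and at most 3 called genes per context list. Some cell type markers are named as well. Cnot7, Ccne1 and Ccne2 were not called and were named after their values were seen. The genes, lists and motifs were chosen with earlier results of these data known. Figures were drawn with matplotlib 3.10.9 in Python 3.11.15.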

Additional observations from a re-analysis of the deposited data

How the results depend on the processing

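The small number of mice and the scatter of the untreated WT libraries limit these results. With 2 untreated libraries per genotype, an untreated difference of 0.68 (Tob2) did not pass. Other settings tried were another filter, log2(CPM + 1), median centring, no variance trend, voom on recovered reads, the mouse as a random effect and leaving out both mice A (the last 3 chosen after seeing the data). Over the values of single genes, 945 kept direction and side of the threshold, 36 no longer passed, 40 newly passed and 27 changed sign.

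Number of the 4 genes called. With LPS in WT it was 2, and 1 with only the libraries of the groups compared (1.38% of all genes called higher). Tob1 was called as well with the replicate block (8.61%) or the mouse as a random effect (14.2%). With LPS in the KO it was 2. There Tob1 was called as well with the replicate block (4.65%), the random effect (4.36%), an FDR of 0.1 (3.3%) or without LPS of KO mouse C (2.79%). Without the untreated library of WT mouse A or of WT mouse B its change stayed at 0.62, but its side of the threshold did not stay the same. With Dex in WT it was 2. It was 0 with no replicate block (0.229% of all genes called lower) or with WT mice A and B only (0.239%). With Dex in the KO it was 2, and 0 with no replicate block (0.281% of all genes called lower). It was 4 with only the groups compared, where 6.18% of all genes were called higher and 5.91% lower. With Dex over both genotypes it was 2, and 1 with no replicate block (0.874% of all genes called lower). It was 4 with only the groups compared, where 8.24% of all genes were called higher and 8.9% lower. Without both mice A this change was -0.20 for Tob1 and 0.20 for Tob2, and the side of the threshold changed for both genes. Between genotypes under LPS it was 0, and 0 as well with only the groups compared (0% of all genes called higher). It was 1 with the mouse letter as a block (0.551% of all genes called higher). It was also 1 at an FDR of 0.1 (0.229%) or with the mouse as a random effect (0.198%). Under LPS + Dex it was 0, and 0 as well with only the groups compared (0%). It was 3 with that block (0.811%) and 1 with the random effect (0.25%, consensus correlation 0.488). Leaving out 1 library at a time gave 0 to 2 for Dex in WT, 0 to 3 for Dex in the KO, 2 to 4 for Dex over both, 0 to 1 for the LPS interaction, 0 to 2 between genotypes untreated, 0 to 1 under LPS and 0 to 2 under LPS + Dex. The cause was not tested.

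Beyond Tob1, which newly passed, the replicate block changed no LPS call. Changes of sign concerned small values that were not called. For LPS in WT, Tob2 was -0.07 with median centring, -0.01 with voom and -0.40 without both mice A. For LPS in the KO it was 0.06 with the replicate block and 0.02 with the random effect. Its LPS interaction was 0.09 without both mice A. Leaving out 1 library gave -0.35 to 0.36 and -0.19 to 0.08 for the Tob2 LPS change in WT and the KO. It gave -0.02 to 0.55 (Btg1), -0.06 to 0.38 (Tob1) and -0.42 to 0.29 (Tob2) for the LPS interaction, -0.06 to 0.08 (Btg2), -0.14 to 0.03 (Tob1) and -0.08 to 0.22 (Tob2) for the Dex interaction, and -0.06 to 0.51 for Btg1 between untreated genotypes.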
